A study of Homo sapiens and Mus musculus with 69 samples.

Results

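KP1 is a mouse small cell lung cancer (SCLC) line, mutant for Rb1 and Trp53, that is used as a syngeneic model. Bulk polyA RNA-Seq of KP1 cells kept in DMSO was compared with that of cells treated with TAS1440, a reversible inhibitor of the histone demethylase LSD1, together with a γ-secretase inhibitor (GSI). Per the study's methods, TAS1440 was used at 100 nM, the GSI given to KP1 was DBZ at 10 µM, and treatment lasted more than 28 days. These 2 groups hold 6 of the 69 libraries of the series, with 3 libraries in each group, and were chosen by their sample labels. The other KP1 group, also of 3 libraries, received TAS1440 without GSI and is shown beside them. All 3 groups are the same line, no KP1 library received GSI alone, and the shares of TAS1440 and of GSI in a difference from DMSO therefore cannot be told apart. Nothing in the labels says that libraries of a group came from separate cultures, so P values measure the spread between these libraries, which may be technical.

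LSD1, encoded by Kdm1a, removes methyl groups from histone H3 and works with CoREST proteins, which SNAG-domain transcription factors such as INSM1 and GFI1 bring to their target genes. In SCLC, LSD1 inhibition is known to raise Notch expression. Notch receptors signal only after γ-secretase has cut them and released their intracellular domain, which then activates genes such as Hes1 and lowers the neuroendocrine program. Adding a GSI to an LSD1 inhibitor thus asks which part of the response is still seen when Notch cleavage is blocked.

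Levels are log2(RPKM + 1), on the authors' scale, and differences are on that log2 scale, which understates the change of genes with low levels. Of 18501 genes in the KP1 table, 8260 had a level of at least 1 in at least 3 of the 9 KP1 libraries and were tested. A gene was called where limma gave an adjusted P below 0.05 and the groups differed by 1 or more in either direction. The variance of a gene was shared over all 3 KP1 groups, so a wide spread with TAS1440 alone can raise its adjusted P. The libraries are numbered as in their labels, DMSO 1 to 3, TAS1440 4 to 6 and TAS1440 plus GSI 7 to 9.

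KP1 cells treated with TAS1440 plus GSI lay close to DMSO cells, and the cells treated with TAS1440 alone lay far from both. Pearson's r between a DMSO and a TAS1440 plus GSI library, across genes, was 0.926 to 0.970, against 0.729 to 0.754 between DMSO and TAS1440 alone. Within the DMSO group r was 0.976 to 0.996 and within the TAS1440 plus GSI group 0.940 to 0.988. DMSO libraries 1 and 2 were the closest pair, with a mean chi-square of 1.34 per gene over 329 genes whose read numbers could be recovered, where 1 is counting noise. They were kept as separate libraries, and the count of genes called with TAS1440 plus GSI is also given with both averaged as 1. The neuroendocrine identity of the line was present in both groups, with Insm1, a neuroendocrine transcription factor, at 7.19, 7.25 and 7.20 in DMSO and 8.13, 8.13 and 7.48 with TAS1440 plus GSI, and the synaptic vesicle protein Syp at 3.15, 3.26 and 2.82 and then 2.68, 2.81 and 3.24.

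The comparison of TAS1440 plus GSI with DMSO called 100 of 8260 genes, 1.21% of those tested. Of these, 38 were higher (0.460%) and 62 lower (0.751%), with a median absolute difference of 1.44. All 100 had groups that did not overlap, which held for 27.7% of all tested genes. TAS1440 alone against DMSO, in the same fit and with the same DMSO libraries, called 751 genes higher (9.09%) and 801 lower (9.70%). The direct comparison of TAS1440 plus GSI with TAS1440 called 1363 genes, 16.5% of those tested. Leaving out 1 library at a time moved the count of 100 to between 49 and 100, with 49 without DMSO library 1, 51 without DMSO library 2 and 58 without library 8. With DMSO libraries 1 and 2 averaged as 1 it was 50. A total of 42 genes were called in all 6 of these fits, 15 of them higher and 27 lower.

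**Figure D1:**
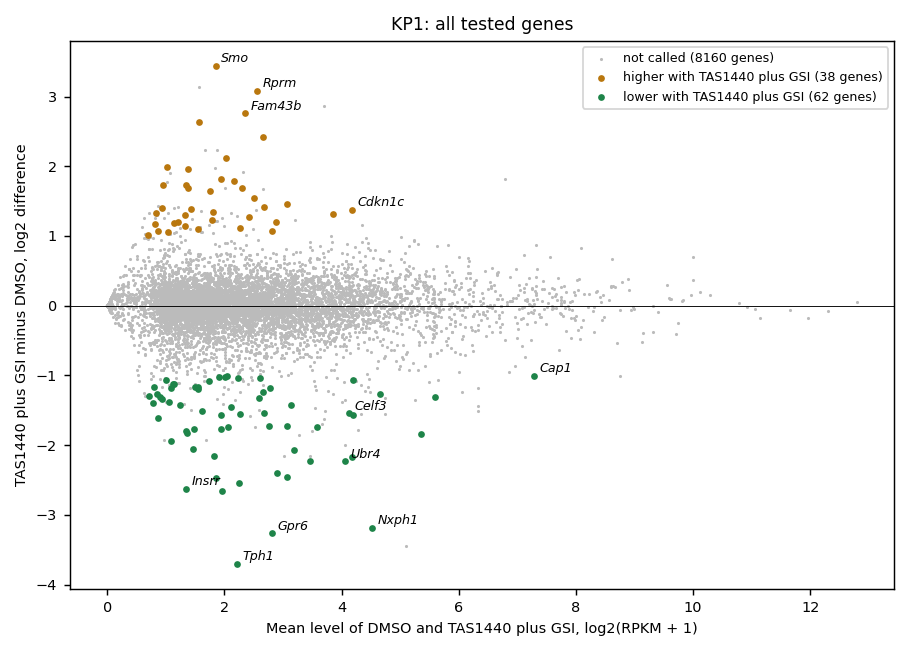
Difference between TAS1440 plus GSI and DMSO (y axis, log2) against the mean level of both groups (x axis, log2(RPKM + 1)) for the 8260 tested KP1 genes, 1 point per gene. The 38 genes called higher and 62 called lower are coloured, and most points lie near 0.

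The strongest rise was in Smo, which encodes Smoothened, the transmembrane protein that carries the Hedgehog signal into the cell. Smo (GRCm38 chromosome 6, 29735503 to 29761365, plus strand) was at 0.069, 0.13 and 0.19 in DMSO and at 4.28, 3.54 and 2.90 with TAS1440 plus GSI. Every treated library was far above every DMSO library, and the difference was 3.44 ± 0.34 (SE, n = 3 and 3, limma adjusted P = 0.00108). With TAS1440 alone the levels were higher still, at 6.18, 5.30 and 5.69, and the direct difference between both treatments was −2.15 (adjusted P = 0.00106).

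Several genes that rose were higher with TAS1440 plus GSI than in either other group. Rprm, which encodes the cell cycle inhibitor reprimo (chromosome 2, 54084093 to 54085552, minus strand), was at 1.07, 0.76 and 1.22 in DMSO, 4.47, 3.97 and 3.86 with TAS1440 plus GSI, and 0.68, 0.00 and 0.54 with TAS1440 alone. It rose by 3.08 ± 0.23 (adjusted P = 0.000276), and the drug pair exceeded TAS1440 alone by 3.69 (adjusted P = 7.09e-06). Fam43b (chromosome 4, 138394092 to 138396528, minus strand) followed the same order, with 1.01, 1.09 and 0.85 in DMSO and 4.00, 3.46 and 3.76 with TAS1440 plus GSI, a rise of 2.76 ± 0.19 (adjusted P = 0.000204). TAS1440 alone left it at 0.67, 0.91 and 1.25.

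Bmp3, a secreted ligand of the bone morphogenetic protein family, was close to 0 in 6 of the 9 libraries. It was at 0.027, 0.035 and 0.021 in DMSO, at 0.033, 0.023 and 0.048 with TAS1440 alone and at 2.41, 1.71 and 1.94 with TAS1440 plus GSI. The rise over DMSO was 1.99 ± 0.16 (adjusted P = 0.000346), with no overlap of groups. Sstr2, the somatostatin receptor that neuroendocrine tumors commonly carry, rose by 1.79 ± 0.24 (adjusted P = 0.00619), from 1.34, 1.26 and 1.18 to 2.71, 2.99 and 3.45. Its levels with TAS1440 alone, 0.90, 1.73 and 1.12, overlapped those in DMSO. Slitrk5, a neuronal transmembrane protein, rose by 1.68 ± 0.16 (adjusted P = 0.000833), while TAS1440 alone differed from DMSO by −0.35 (adjusted P = 0.113).

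Another group of genes rose with TAS1440 plus GSI and was higher again with TAS1440 alone. Lgals1, which encodes galectin-1, was at 1.24, 1.13 and 0.74 in DMSO and 3.04, 2.92 and 2.59 with TAS1440 plus GSI, a rise of 1.81 ± 0.27 (adjusted P = 0.00976), against 7.98, 8.38 and 8.98 with TAS1440 alone. Snai2, the EMT transcription factor SLUG and itself a SNAG-domain protein, was at 0.94, 0.95 and 0.91, then 2.73, 2.67 and 2.32, a rise of 1.64 ± 0.28 (adjusted P = 0.0176). The TAS1440 libraries held Snai2 at 7.02, 5.83 and 6.62. Osbpl5, a lipid transfer protein, rose by 1.73 ± 0.20 (adjusted P = 0.00243) and by 2.74 with TAS1440 alone. Cx3cl1, the chemokine fractalkine, rose by 1.97 ± 0.38 (adjusted P = 0.0377), from 0.46, 0.32 and 0.39 to 2.53, 2.39 and 2.14. The Lgals1 call was lost without DMSO library 2 or library 8 (adjusted P = 0.0537 to 0.0582), that of Snai2 without any 1 of libraries 1, 2, 3, 7 or 8 (adjusted P = 0.0602 to 0.0930) and that of Cx3cl1 without any 1 of the 6 libraries (adjusted P = 0.0796 to 0.159).

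Hoxd13, a posterior homeobox gene, reached a similar level with and without GSI. It was at 1.34, 1.16 and 0.42 in DMSO, 3.50, 2.78 and 3.01 with TAS1440 plus GSI and 2.79, 2.70 and 2.81 with TAS1440 alone. The rise over DMSO was 2.12 ± 0.26 (adjusted P = 0.0037), and both treatments differed by 0.33 (adjusted P = 0.371) with overlapping libraries.

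Ndn, Nap1l5 and Cdkn1c also rose, and none of them was called higher with TAS1440 alone. Ndn, which encodes necdin, a growth suppressor of postmitotic neurons, was at 0.070, 0.11 and 0.58 in DMSO and 3.49, 2.86 and 2.29 with TAS1440 plus GSI, a rise of 2.63 ± 0.34 (adjusted P = 0.00498), and at 1.19, 0.16 and 0.28 with TAS1440 alone. Nap1l5, a nucleosome assembly protein relative, went from 1.77, 1.67 and 1.77 to 3.13, 3.49 and 3.22, a rise of 1.55 ± 0.20 (adjusted P = 0.00452), and fell by 1.10 with TAS1440 alone (adjusted P = 0.0021). Cdkn1c, the CDK inhibitor p57, went from 3.45, 3.46 and 3.58 to 4.76, 4.82 and 5.04, a rise of 1.38 ± 0.28 (adjusted P = 0.041), and fell by 1.88 with TAS1440 alone (adjusted P = 0.000612). The Cdkn1c call was lost without any 1 of the 6 libraries (adjusted P = 0.0967 to 0.182), and that of Nap1l5 with a pseudocount of 0.1 in place of 1 (adjusted P = 0.0577).

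The remaining leading genes that rose were Chrnd, the δ subunit of the muscle nicotinic receptor, and Sox21, a SOX transcription factor of neural progenitors. Chrnd was at 1.40, 1.49 and 1.42 in DMSO and 3.87, 4.38 and 3.34 with TAS1440 plus GSI (difference 2.43 ± 0.50, adjusted P = 0.0445). Sox21 was at 1.55, 1.37 and 1.45 and then 3.13, 3.96 and 2.33 (difference 1.68 ± 0.35, adjusted P = 0.0484). Neither gene's groups overlapped, yet the Chrnd call was lost without any 1 of the 6 libraries (adjusted P = 0.0631 to 0.176) and that of Sox21 without any 1 of libraries 1, 2, 3, 7 or 8 (adjusted P = 0.0904 to 0.196).

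**Figure D2:**
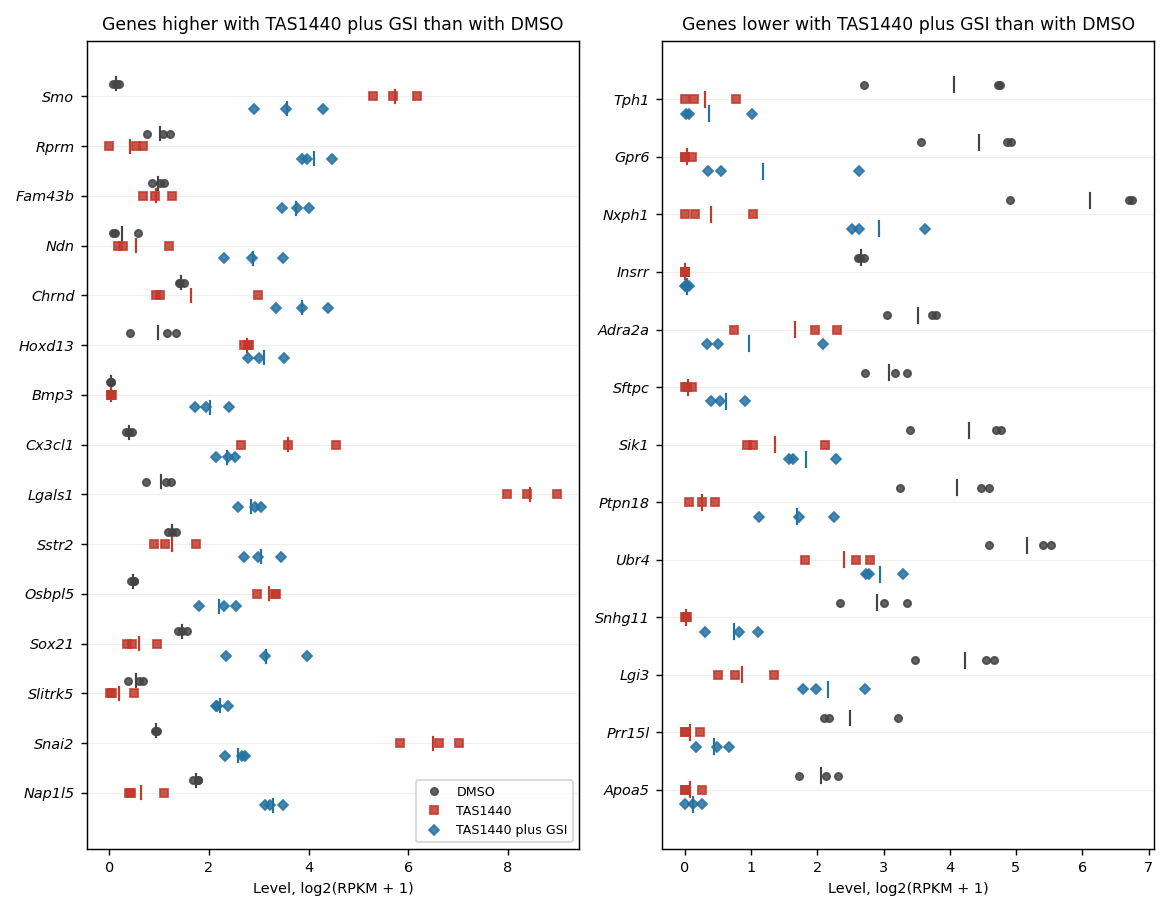
Level (x axis, log2(RPKM + 1)) of the 15 genes with the largest rise (left) and 13 of the 15 with the largest fall (right) between DMSO and TAS1440 plus GSI, with 1 point per KP1 library and a bar at each group mean. TAS1440 alone is high for Smo, Lgals1 and Snai2 and low for Rprm and Bmp3, and it lies near 0 for most genes in the right panel.

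The largest fall was in Tph1, tryptophan hydroxylase, the rate-limiting enzyme of serotonin synthesis outside the brain. Tph1 (chromosome 7, 46644641 to 46672537, minus strand) was at 4.73, 4.76 and 2.71 in DMSO and 0.027, 0.066 and 1.01 with TAS1440 plus GSI. Groups did not overlap, with library 3 the lowest of DMSO and library 9 the highest of the treated libraries, and the difference was −3.70 ± 0.53 (adjusted P = 0.00901). Without library 8 the call was lost (adjusted P = 0.0515). TAS1440 alone gave 0.00, 0.14 and 0.77, and both treatments differed by 0.066 (adjusted P = 0.939).

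Insrr fell with little spread between libraries. Insrr, a receptor tyrosine kinase of the insulin receptor family (chromosome 3, 87796951 to 87816101, plus strand), was at 2.70, 2.62 and 2.65 in DMSO and at 0.069, 0.025 and 0.0046 with TAS1440 plus GSI, a difference of −2.63 ± 0.089 (adjusted P = 1.53e-06). With TAS1440 alone it was listed at 0.00, 0.0047 and 0.00. The call held in all 6 fits that leave out a library.

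The calls of Sftpc, Apoa5, Prr15l and Snhg11 also held in all 6 of these fits. Sftpc, the surfactant protein of alveolar type II cells, was at 3.18, 3.36 and 2.72 in DMSO and 0.53, 0.40 and 0.92 with TAS1440 plus GSI (difference −2.47 ± 0.19, adjusted P = 0.000276). Apoa5, an apolipoprotein, fell by 1.94 on the log2 scale, Prr15l by 2.05 and Snhg11 by 2.16, with adjusted P of 0.000407, 0.00603 and 0.00386.

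The other leading falls reported here had DMSO library 3 below DMSO libraries 1 and 2, as did Tph1, Sftpc, Apoa5 and Snhg11. Nxph1, which encodes the secreted neurexin ligand neurexophilin 1, was at 6.70, 6.75 and 4.91 in DMSO and 2.63, 2.53 and 3.63 with TAS1440 plus GSI (difference −3.19 ± 0.52, adjusted P = 0.0157). Gpr6, an orphan G protein-coupled receptor, was at 4.86, 4.92 and 3.56 and then 0.36, 0.55 and 2.63 (difference −3.27 ± 0.57, adjusted P = 0.0219). Adra2a, the α2A adrenergic receptor, fell by 2.55 (adjusted P = 0.0433), Sik1, a salt-inducible kinase, by 2.46 (adjusted P = 0.0214), the phosphatase gene Ptpn18 by 2.41 (adjusted P = 0.0126), the ubiquitin ligase gene Ubr4 by 2.23 (adjusted P = 0.00957) and Lgi3, a secreted neuronal protein, by 2.07 (adjusted P = 0.0232). Each of these calls was lost without DMSO library 1, without DMSO library 2 and without library 8, with adjusted P from 0.0515 to 0.187 over all fits that lost one. Library 3 was the lowest DMSO library for 44 of the 62 genes that fell, and library 9 the highest treated library for 28 of them. The same shares over all tested genes were not computed, so nothing is read from these counts.

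Ifitm3, an interferon-inducible membrane protein that blocks viral entry, moved in opposite directions under both treatments. It was at 2.24, 2.34 and 2.16 in DMSO, at 0.14, 0.56 and 0.64 with TAS1440 plus GSI and at 8.21, 8.11 and 7.92 with TAS1440 alone. The fall against DMSO was −1.80 ± 0.18 (adjusted P = 0.0011), the rise with TAS1440 alone 5.84 (adjusted P = 2.1e-07) and the direct difference −7.64 (adjusted P = 5.08e-08). Groups were fully separate in each comparison. Among the genes of the list of interferon-stimulated genes, 23 were tested and Ifitm3 was the 1 called.

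Among called genes with separate groups and a mean of at least 2 in one of them, the smallest direct differences between both treatments were those of Ptbp3, Insrr, Apoa5, Hsd17b10, Enc1, Tph1, C1galt1 and Slc25a35, between −0.028 and 0.094. Enc1, an actin-binding protein of neurons, was at 1.83, 1.83 and 2.26 in DMSO, 3.33, 3.37 and 3.46 with TAS1440 plus GSI and 2.93, 3.32 and 3.74 with TAS1440 alone. Hsd17b10, a mitochondrial dehydrogenase, rose by 1.32 with TAS1440 plus GSI and by 1.27 with TAS1440 alone. The largest direct differences that passed the test were those of Ifitm3, Lgals1, Snai2, Rprm, Cdkn1c, Rtn1, Rims3 and Celf3. Rtn1, an endoplasmic reticulum protein of neuroendocrine cells, was at 2.27, 2.38 and 2.19 in DMSO, 3.40, 3.11 and 3.96 with TAS1440 plus GSI and 0.0076, 0.19 and 0.49 with TAS1440 alone. These values share libraries with the comparison that chose the genes and are given side by side as a description. Calls against DMSO were lost without at least 1 library for Rtn1, Rims3, Enc1, Hsd17b10, C1galt1, Slc25a35 and Ptbp3, with adjusted P of 0.00801 to 0.200 in the fits that lost one, where some missed the minimum difference of 1 and not the threshold on P. These fits left out 1 of libraries 1, 2, 3, 7 or 9 for Rtn1, of 1, 2, 7 or 8 for Rims3, of 1, 2, 3 or 7 for Hsd17b10, of 1, 2 or 8 for Enc1 and for C1galt1, of 1 or 8 for Slc25a35, and 9 for Ptbp3.

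Across 46 gene lists and symbol families, 12 held at least 1 called gene and 2 held 3 or more, against 1.21% of all tested genes. Counts at an unadjusted limma P under 0.05, given for some lists, stand beside 975 of all 8260 tested genes. In any list, members could pass the filter on low levels through a single group, which shapes its counts and median. Voltage-gated ion channel subunits, which shape membrane excitability, held 4 genes called lower of 13 tested and none called higher. All 13 differences were below 0, with a median of −0.74, against a median of 0.0022 over all tested genes. However, 68 members were measured, and some, such as Cacna1h and Kcnh6, passed the filter only through their DMSO levels. For these a difference below 0 was largely set in advance, so nothing is read from the signs, the median or the share of genes called. Among the genes called lower were Kcnh3 (−1.76, adjusted P = 0.00428), Cacna1h (−1.33, adjusted P = 0.000236) and Cacnb2 (−1.27, adjusted P = 0.0398). Cacna1h, a T-type calcium channel, was at 1.62, 1.59 and 1.60 in DMSO and 0.28, 0.38 and 0.15 with TAS1440 plus GSI. Kcnc1 (−0.80, adjusted P = 0.0166) and Kcnh6 (−0.62, adjusted P = 0.0476) passed the threshold on P and not on size. TAS1440 alone, under the same filter and with the same DMSO libraries, called all 13 lower, with a median of −1.61. The Cacnb2 call was lost without any 1 of libraries 1, 2, 7 or 8 (adjusted P = 0.134 to 0.202), and the Kcnh3 call with a pseudocount of 0.1 (adjusted P = 0.0527).

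Neuroendocrine granule, peptide and vesicle genes held 3 called lower of 30 tested, with a median of −0.23, against 25 called lower and a median of −2.43 with TAS1440 alone. The 3 were Tph1, Celf3 and Syt7. Celf3, a neuronal RNA-binding protein, was at 4.93, 4.86 and 4.90 in DMSO, 3.15, 3.67 and 3.24 with TAS1440 plus GSI and 0.00, 0.12 and 0.56 with TAS1440 alone, and it fell by 1.54 against DMSO (adjusted P = 0.00425). With a pseudocount of 0.1 that call was lost (adjusted P = 0.233). Syt7, a calcium sensor of vesicle release, fell by 1.00 (adjusted P = 0.00165), and its difference came under 1 without library 3 or library 9 (adjusted P = 0.00624 to 0.00643). Chga, the granule protein chromogranin A, was at 7.29, 7.38 and 6.07 in DMSO and 5.25, 5.16 and 6.80 with TAS1440 plus GSI, with overlapping groups and adjusted P = 0.613. None of 19 neuroendocrine transcription factors was called by limma, with 4 at an unadjusted P under 0.05 and a median of 0.060, whereas TAS1440 alone called 12 lower and 1 higher. Insm1 differed by 0.70 (adjusted P = 0.885). Its SD was 2.29 with TAS1440 alone, against 0.027 in DMSO and 0.38 with TAS1440 plus GSI, and the fit pooled these.

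**Figure D3:**
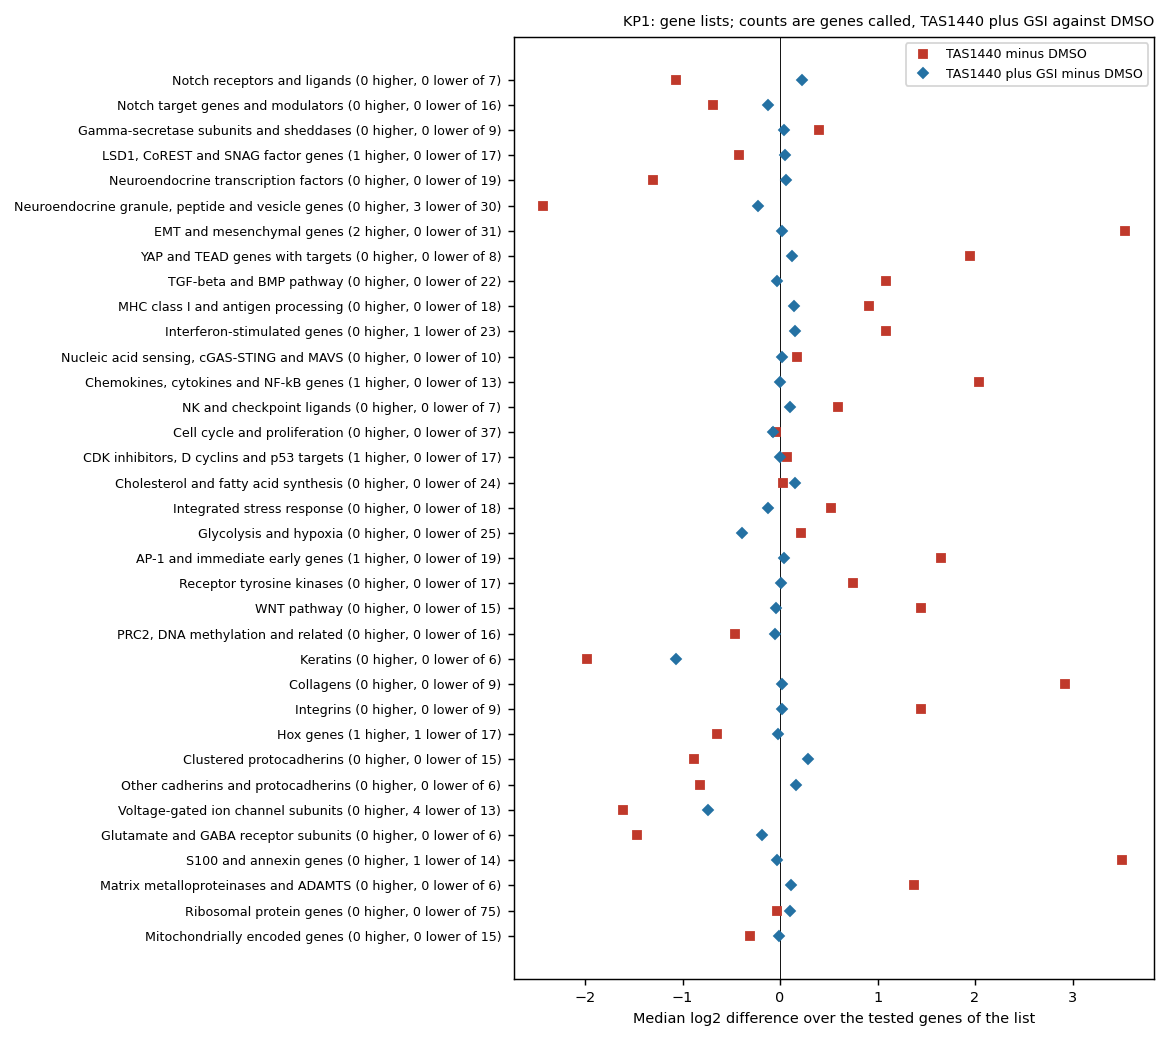
Median log2 difference (x axis) over the tested genes of each list or symbol family with at least 6 tested genes, for TAS1440 plus GSI minus DMSO (diamonds) and TAS1440 minus DMSO (squares), which share the DMSO libraries. Counts in the labels are genes called with TAS1440 plus GSI against DMSO. Most diamonds lie close to 0, and the lowest are those of keratins (−1.07) and voltage-gated channels (−0.74). Some channel genes passed the filter on low levels only through DMSO, so nothing is read from their median.

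No Notch gene was called. Of 7 tested receptors and ligands and 16 tested targets and modulators, none passed in limma, 0 and 2 had an unadjusted P under 0.05, and the medians were 0.23 and −0.13. TAS1440 alone called 2 higher and 4 lower in the first list and 3 higher and 6 lower in the second. Hes1 was at 0.87, 0.93 and 0.56 in DMSO, 0.95, 0.86 and 1.31 with TAS1440 plus GSI and 4.64, 5.42 and 5.33 with TAS1440 alone. The first pair of groups overlapped (difference 0.25, adjusted P = 0.785), and the direct difference between both treatments was −4.09 (adjusted P = 4.24e-06). Notch2 was at 0.18, 0.20 and 0.11 in DMSO, 0.36, 0.48 and 0.33 with TAS1440 plus GSI and 2.21, 1.49 and 1.83 with TAS1440 alone (difference from DMSO 0.23, adjusted P = 0.71). Notch1 did not pass the filter on low levels. It was at 0.064, 0.045 and 0.035 in DMSO, 0.23, 0.41 and 0.54 with TAS1440 plus GSI and 1.45, 1.33 and 0.95 with TAS1440 alone, 3 ranges that did not overlap.

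Rest, the repressor of neuronal genes, and Vim, which encodes vimentin, lay above DMSO without passing the test. Rest was at 0.034, 0.025 and 0.033 in DMSO and 0.99, 0.72 and 1.02 with TAS1440 plus GSI (difference 0.88 ± 0.19, adjusted P = 0.0567), against 2.48, 1.99 and 1.65 with TAS1440 alone. Vim was at 0.63, 1.04 and 0.62 and then 1.73, 2.84 and 4.40 (difference 2.23 ± 0.55, adjusted P = 0.0889), against 11.3, 10.8 and 11.3. With a pseudocount of 0.1 in place of 1, Rest passed with a difference of 3.00 (adjusted P = 0.00237), and over all alternatives its adjusted P was 0.00237 to 0.224. Vim passed in the fit without library 7 (difference 2.86, adjusted P = 0.0198), with a range of 0.0198 to 0.307. Of 31 tested EMT and mesenchymal genes, Snai2 and Lgals1 were called higher and none lower, with a median of 0.024, against 29 higher and 2 lower with TAS1440 alone. Some, such as Axl, passed the filter on low levels only through their levels with TAS1440 alone. For these a rise with TAS1440 alone and a small difference otherwise were largely set in advance, so nothing is read from these counts and the median. Axl stayed at or under 0.030 in the libraries of both groups and was at 3.97, 4.85 and 3.66 with TAS1440 alone. Cd44 differed by −0.30 (adjusted P = 0.662).

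Antigen presentation genes were not called. None of 18 tested MHC class I and antigen processing genes passed in limma, with 1 at an unadjusted P under 0.05 and a median of 0.15, whereas 8 were called higher with TAS1440 alone. B2m, the light chain of MHC class I, was at 1.21, 1.34 and 0.89 in DMSO, 1.13, 1.39 and 1.80 with TAS1440 plus GSI and 6.02, 5.59 and 5.90 with TAS1440 alone (difference from DMSO 0.30, 95% interval −0.19 to 0.78, adjusted P = 0.707). The class I heavy chains H2-K1 and H2-D1 differed from DMSO by 0.26 (95% interval −0.34 to 0.87) and 0.0093 (−0.65 to 0.66). Tap1, the peptide transporter, and the immunoproteasome subunit Psmb8 differed by 0.15 and 0.12 with overlapping groups. With TAS1440 alone, Psmb8 was called higher than in DMSO, and H2-K1, H2-D1 and Tap1 were not called. Nlrc5, the class I transactivator, was at or under 0.013 in all 6 libraries and was not tested. Tmem173, which encodes STING, was at 1.99, 2.27 and 1.58 in DMSO and 1.50, 1.10 and 1.69 with TAS1440 plus GSI (adjusted P = 0.345). TAS1440 alone did not raise Tmem173 either, with levels of 1.67, 1.85 and 1.86 (limma adjusted P = 0.591 against DMSO). Cxcl10 lay above DMSO in all 3 treated libraries, at 0.39, 0.24 and 0.44 against 0.078, 0.11 and 0.13, and did not pass (limma adjusted P = 0.956). Its SD was 1.5 with TAS1440 alone, against 0.026 in DMSO and 0.11 with TAS1440 plus GSI, and the fit pooled these. Over the alternatives its adjusted P went as low as 0.0725.

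**Figure D4:**
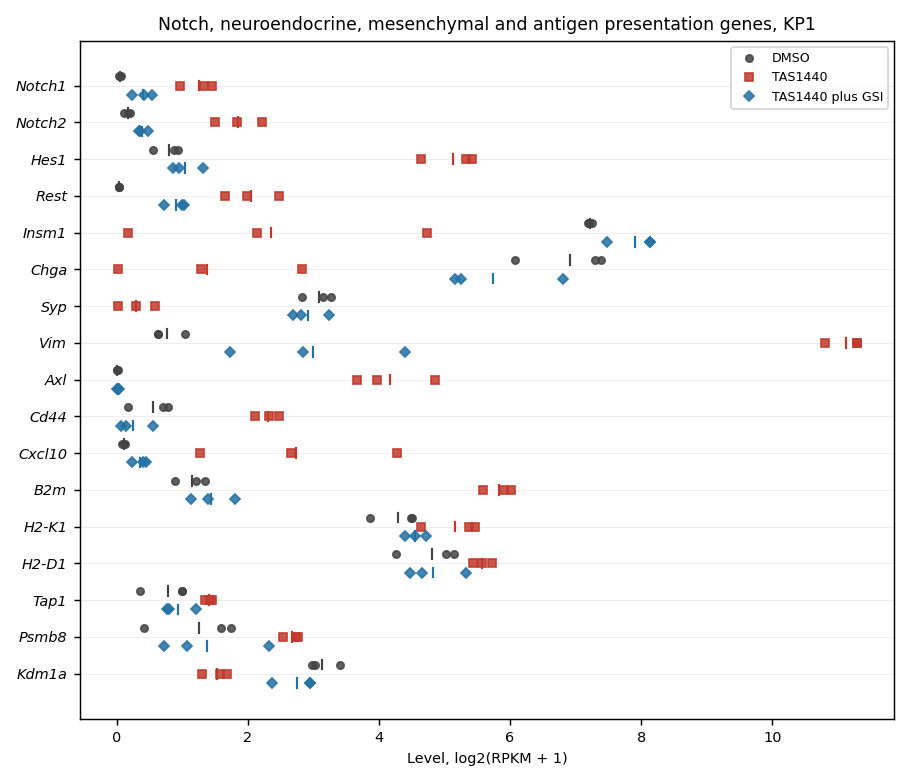
Level (x axis, log2(RPKM + 1)) of Notch, neuroendocrine, mesenchymal and antigen presentation genes in each of the 9 KP1 libraries, with a bar at each group mean. For Hes1, B2m, Axl and Syp the TAS1440 plus GSI libraries lie with or next to DMSO and apart from TAS1440 alone, and Rest, Vim and Notch1 lie between.

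Kdm1a, the drug target, was at 3.02, 2.98 and 3.41 in DMSO and 2.94, 2.94 and 2.36 with TAS1440 plus GSI (difference −0.40, adjusted P = 0.527), and TAS1440 alone lowered it by 1.62 (adjusted P = 0.000265). Of 17 tested LSD1, CoREST and SNAG factor genes, Snai2 was the 1 called. Gfi1, a SNAG-domain repressor that recruits LSD1, was at 2.86, 2.93 and 2.71 in DMSO and 3.75, 4.10 and 2.95 with TAS1440 plus GSI (difference 0.77, adjusted P = 0.27).

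Single genes were called in 6 further lists. These were Klf2 among 19 AP-1 and immediate early genes (difference 1.07, adjusted P = 0.0145), Anxa11 among 14 S100 and annexin genes (−1.07, adjusted P = 0.00976), Cx3cl1 among 13 chemokine and NF-kB genes, Cdkn1c among 17 CDK inhibitors, D cyclins and p53 targets, Chrnd among 3 nicotinic receptor subunits and Sftpc among 3 tested lung epithelial markers. Of 17 Hox genes, Hoxd13 rose and Hoxb4 fell by 1.02 (adjusted P = 0.042). The calls of Klf2, Hoxb4 and Anxa11 were each lost without DMSO library 1, DMSO library 2 or library 8, among others (adjusted P = 0.0501 to 0.156). The other lists had no call, among them 6 keratins (median −1.07, 3 at an unadjusted P under 0.05), 37 cell cycle genes (median −0.069, 1 at an unadjusted P under 0.05), 25 glycolysis and hypoxia genes (median −0.39, 21 of 25 below 0, 6 at an unadjusted P under 0.05), 24 cholesterol and fatty acid synthesis genes (median 0.16, 0 at an unadjusted P under 0.05) and 75 ribosomal protein genes (median 0.10, 1 at an unadjusted P under 0.05). Over all 8260 tested genes, 975 had an unadjusted limma P under 0.05. The pooled variance weighed on keratins such as Krt8, whose SD was 3.16 with TAS1440 alone, 0.10 in DMSO and 0.74 with TAS1440 plus GSI. Among markers of other cells, Ptprc (leukocytes), Cdh5 (endothelial cells) and Col1a1 (fibroblasts) were at or under 0.043 in all 6 libraries. Summed levels of the 10 fibroblast markers were 1.59 to 3.49 in DMSO and 2.17 to 5.86 with TAS1440 plus GSI. Of these, 4 were tested and none was called. Pdgfra and Thy1, genes of fibroblasts among other cells, were detected, with overlapping groups. Pdgfra was at 1.15, 1.21 and 0.52 in DMSO and 0.48, 1.44 and 2.84 with TAS1440 plus GSI. The summed level of the 7 lung epithelial markers in the table was 7.53 to 9.01 in DMSO and 4.10 to 4.63 with TAS1440 plus GSI, with Sftpb and Krt5 at 0 throughout, and its part in other results was not tested.

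The same treatment pair was given to COR-L88, a human SCLC line, except that its GSI was BMS-708163 at 2 µM. These libraries are independent of KP1, and their table was normalized separately. Of the tested KP1 genes, 6880 shared a symbol with a tested COR-L88 gene, of which 273 were called higher (3.97%) and 172 lower (2.50%) with TAS1440 plus GSI against DMSO in COR-L88. Of the 38 genes that rose in KP1, 24 could be matched, and 5 were called higher (20.8%) and 2 lower in COR-L88. Of the 62 that fell, 39 could be matched, and 4 were called lower (10.3%) and 3 higher.

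Smo rose in both lines. In COR-L88, SMO was at 0.90, 0.81 and 0.77 in DMSO, 3.21, 2.92 and 3.00 with TAS1440 plus GSI and 2.19, 2.90 and 2.89 with TAS1440 alone, a rise of 2.22 ± 0.20 against DMSO (adjusted P = 2.36e-06). Bmp3, Arhgap20, Dchs1 and Mdga1 also rose in both, and BMP3 in COR-L88 went from 0.098, 0.21 and 0.52 to 1.99, 1.69 and 1.56 (difference 1.47, adjusted P = 0.00498). Ets2, Tmem158, Pde11a and Syt7 fell in both lines. Ets2, an ETS transcription factor, was at 4.98, 5.00 and 4.97 in KP1 DMSO and 3.74, 3.03 and 3.47 with TAS1440 plus GSI (difference −1.57, adjusted P = 0.00398), and ETS2 differed by −1.33 in COR-L88 (adjusted P = 1.56e-05). PDE11A, a cyclic nucleotide phosphodiesterase, differed by −3.65 in COR-L88 and Pde11a by −1.20 in KP1. The KP1 call was lost for Dchs1 without any 1 of the 6 libraries, for Mdga1 without 1, 2, 3, 7 or 8, for Tmem158 without 1, 2, 7 or 8 and for Arhgap20 without 3, where its difference came under 1 (adjusted P = 0.0263 to 0.110 over these fits).

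**Figure D5:**
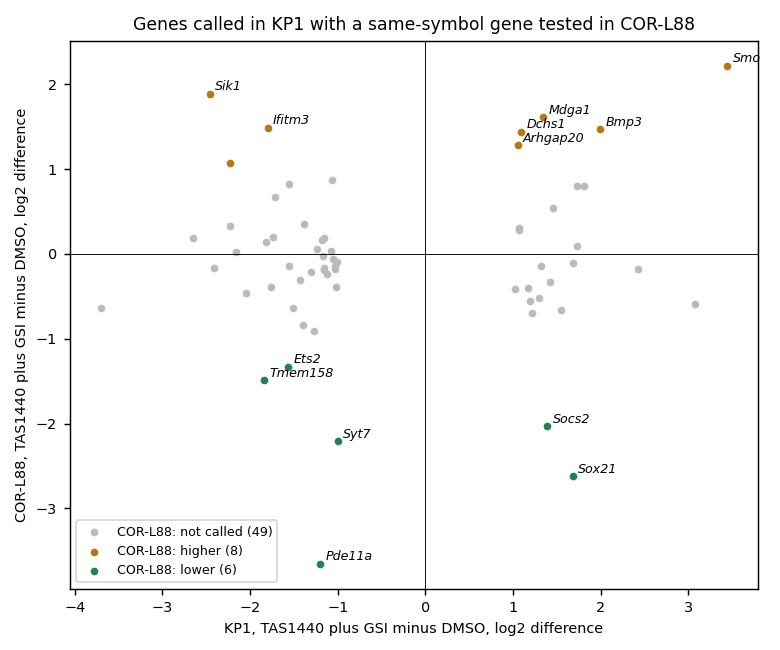
Difference between TAS1440 plus GSI and DMSO in KP1 (x axis, log2) and COR-L88 (y axis, log2) for the KP1 genes called and tested under the same symbol in COR-L88, 1 point per gene. Names mark genes called in COR-L88 that are reported here, with Smo at the upper right, and grey points were not called there.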

How the data were processed

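Samples were grouped by their titles. Per the study's methods, libraries were made with Illumina Stranded mRNA Prep and sequenced on a NovaSeq instrument. Cutadapt, STAR and RSEM served for trimming, alignment and quantification. The authors scaled them with edgeR TMM factors to RPKM and deposited log2 values of RPKM + 1. Versions and annotation are not given in the sources used here, and the submitters' processing notes list hg19 and mm10 without roles. Read totals are unknown. From the steps between low values, relative library depth was 0.874 to 1.08 times the median.

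Groups were compared with limma 3.58.1 (R 4.3.3), moderated variances with a trend and 1 mean for each of the 3 KP1 groups, two-sided, with Benjamini-Hochberg adjustment over all 8260 genes tested. The script was tested on simulated data. COR-L88 was fitted alike on its own libraries. Positions are from GENCODE M21 (GRCm38).

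Genes were named by rule: genes the study centers on, up to 15 per direction with the largest difference among called genes with separate groups, a mean not below 2 in whichever group was higher, and no predicted-gene symbol, up to 4 called genes per list, and up to 8 with the smallest and largest direct difference from TAS1440. Genes called in COR-L88 and genes not called were added after their values were seen. Some genes that meet these rules are not reported here. Members and lists were chosen with earlier results of these data known. The alternatives were another pseudocount, no filter, other scaling, no trend, only the compared groups, leaving out each library and, added after the data were seen, DMSO libraries 1 and 2 averaged.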

Additional observations from a re-analysis of the deposited data

Results flagged for a closer look

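Ifitm3, Sik1, Socs2 and Sox21 were called in KP1 and in COR-L88 with TAS1440 plus GSI against DMSO, with separate groups in both lines, but in opposite directions. The difference between the lines was not tested, and species, GSI and table differ with the line. Ifitm3 differed by −1.80 in KP1 and IFITM3 by 1.49 in COR-L88, where it was at 0.066, 0.21 and 0.00 in DMSO and 2.05, 1.19 and 1.53 with TAS1440 plus GSI. For Sik1 the values were −2.46 and 1.89. Socs2, a suppressor of cytokine signaling, rose by 1.39 in KP1, from 0.81, 0.89 and 0.50 to 2.31, 1.92 and 2.15, and in COR-L88 it differed by −2.03, from 2.66, 3.14 and 3.17 to 0.97, 1.07 and 0.83. Sox21 differed by 1.68 in KP1 and by −2.62 in COR-L88. The KP1 calls of Sik1, Socs2 and Sox21 were each lost without DMSO library 1, DMSO library 2 or library 7, among others (adjusted P = 0.0521 to 0.196 over the fits that lost one).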

How the results depend on the processing

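Leaving out 1 library at a time gave 49 to 100 called genes (18 to 32 higher, 31 to 76 lower), 5 to 9 lists with a call and 17 to 28 of the 30 leading genes still called. With DMSO libraries 1 and 2 averaged as 1, these were 50 genes (19 higher, 31 lower), 6 lists and 19 leading genes. The cause was not tested. The other settings gave 85 to 132 called genes, and the direct difference from TAS1440 1230 to 1892. Over 64 named genes and 832 gene values, no direction of a called gene reversed, 168 values lost the call, in 31 genes, and 2 gained it. No paired analysis was possible because the KP1 libraries share no replicate number between groups. With unknown read totals, genes near 0 carry no counting interval.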

Other observations

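Lists added after values were seen gave further values, with no test of a list. Their counts stand beside 0.460% of all tested genes called higher and 0.751% called lower, and since members were picked with values known, nothing is read from them. Of 17 tested imprinted genes, 4 were called higher (Ndn, Nap1l5, Cdkn1c and Osbpl5) and none lower, with a median difference of 0.082. Peg3, a paternally expressed zinc finger gene, was at 4.89, 4.75 and 4.43 in DMSO and 3.03, 3.34 and 3.57 with TAS1440 plus GSI, and did not pass (adjusted P = 0.237). H19 and Dlk1, which rose by 4.63 and 5.04 with TAS1440 alone, differed from DMSO by 0.048 and −0.034 with TAS1440 plus GSI. Of 7 tested Hedgehog pathway genes, Smo was the 1 called. Disp2, with separate groups, passed on limma adjusted P and not on size (difference −0.84, adjusted P = 0.0445). Ptch1, the Hedgehog receptor and itself a target of the pathway, was at 1.52, 1.58 and 1.29 in DMSO and 0.87, 0.88 and 1.06 with TAS1440 plus GSI (difference −0.53, adjusted P = 0.0857), and Gli1, another target, stayed at or under 0.051 in both groups. Gas1, a Hedgehog co-receptor, was at 0.12, 0.14 and 0.098 in DMSO and spread from 0.67 to 3.90 with TAS1440 plus GSI.

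Of 16 tested apoptosis genes, Bcl2l11, which encodes the pro-apoptotic protein BIM, rose by 1.07 (adjusted P = 0.0239) and Casp9 fell by 1.06 (adjusted P = 0.0114), and both calls were lost without DMSO library 1, DMSO library 2 or library 8, among others (adjusted P = 0.0286 to 0.115, where the lowest missed the minimum difference). Of 23 clustered protocadherins, cell-surface adhesion proteins of neurons, 15 were tested. All 15 had differences above 0, with a median of 0.29, 5 had an unadjusted limma P under 0.05, and none was called. Pcdhb3 passed on adjusted P and not on size (difference 0.67, adjusted P = 0.0399). Members could pass the filter on low levels through their TAS1440 plus GSI levels, so nothing is read from the signs and the median. Among large differences that did not pass, Cartpt, a neuropeptide precursor, was at 7.76, 7.94 and 4.75 in DMSO and 2.39, 2.81 and 4.94 with TAS1440 plus GSI (difference −3.44, adjusted P = 0.11), with library 3 below library 9.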
